A study of Rattus norvegicus with 19 samples.

Results

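The genes described here are axon guidance ligands and receptors, measured in deep motor cortex of rats after the corticospinal axons had been cut in the spinal cord. They were chosen by symbol. A gene was taken if its symbol starts with Sema, Plxn, Nrp1, Nrp2, Ntn, Unc5, Slit1, Slit2, Slit3, Robo, Efna, Efnb, Epha or Ephb, or if it is Dcc, Neo1, Rtn4 or Rtn4r. The array held 106 such probe sets for 62 of the 14217 genes it names, and where a gene had several the one of highest mean signal stood for it. The rule itself used no difference between groups, but it was set with earlier results of these data known. It also took in Unc50, a protein of the secretory pathway, and Unc5cl, a relative of the Unc5 receptors that is not known as a netrin receptor. Both are counted among the 62 but not among the 28 ligands and 30 receptors; Rtn4 and Rtn4r make up the rest.

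Axon guidance molecules tell a growing axon where to go. Semaphorins signal through plexins, the secreted class together with neuropilins; netrins attract through Dcc and Neo1 and repel through Unc5 receptors; Slits repel through Robo receptors; ephrins on one cell meet Eph receptors on the next. Rtn4, or Nogo, is a membrane protein of oligodendrocytes and neurons whose receptor Rtn4r limits axon regrowth, and many of these genes stay on in the adult cortex.

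Adult female Fischer 344 rats received a wire-knife cut of the dorsal columns, which carry most corticospinal axons, at the third cervical segment. RNA was taken from deep motor cortex for forelimb and hindlimb, where layer V corticospinal neurons lie. Controls make up 4 arrays, and 3 arrays per time come from rats 1, 3, 7, 14 and 49 days after the cut. Neither a sham operation in controls nor the number of rats behind an array is stated, so p-values measure the spread between these samples. The tissue also holds glia, vessels and other neurons, and fewer cells of a type cannot be told apart from less RNA per cell. The 6 layer V markers were present, with an array mean of 8.45 to 8.56 log2 in controls. A signal is the deposited log2 value of a probe set, and a difference of 1 is a doubling; signals of different genes were not compared, because probe sets differ in response.

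On 2 of the 19 arrays the guidance genes stood far from their groups. The 62 members differed from the control mean by a median absolute 0.386 log2 on day14 replicate 2 and 0.497 on day49 replicate 2, against 0.06 to 0.162 on the other 17 arrays. Day49 replicate 2 was the highest or lowest of all 19 arrays in 46 of the 62 members, and day14 replicate 2 in 32. The same 2 arrays stood apart over all probe sets, and day14 replicate 2 had a beta-actin 3' minus 5' signal, a measure of RNA integrity, of 2.24 log2 against 0.877 to 1.29 on the 17. Results are therefore given over 19 arrays and over the 17. The sign of the difference from control turned without the 2 arrays in 28 members at day 14 and 12 at day 49.

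**Figure D1:**
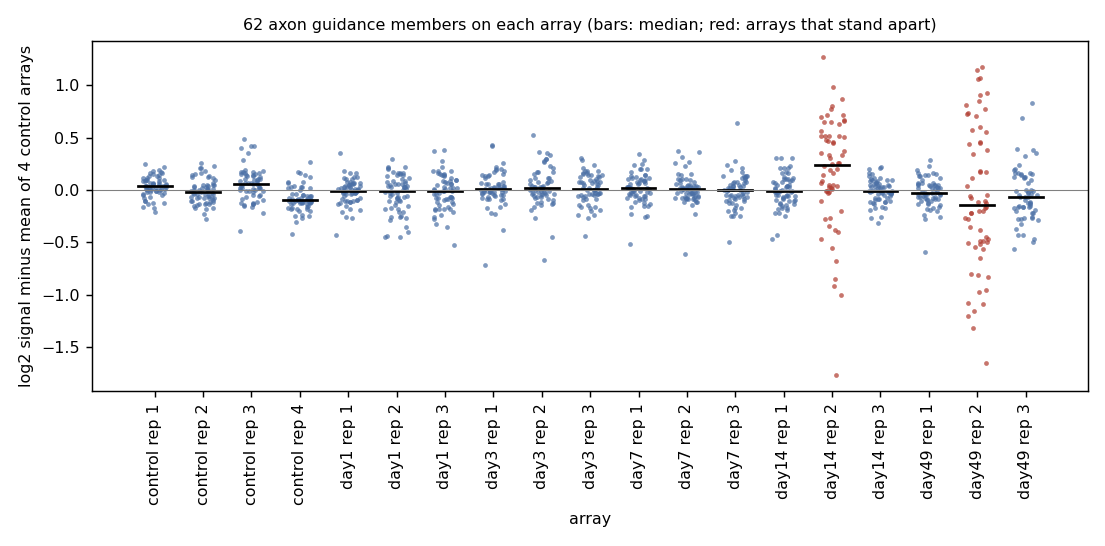
Log2 signal of each of the 62 members minus its mean over the 4 control arrays, by array; each point is a gene, the bar is the median of the 62, and red marks the 2 arrays that stand apart. The members lie widely scattered on day14 replicate 2 and day49 replicate 2, with median absolute deviations of 0.386 and 0.497.

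No guidance gene passed the test at any time. The test was limma's moderated test over all 31042 probe sets, with an adjusted p threshold of 0.05 (Benjamini-Hochberg). It called 0 of 62 members at days 1, 3, 7, 14 and 49 against control, where it called 0.0354%, 0%, 0%, 0% and 0% of all probe sets. It called none in the steps from day 1 to 3, 3 to 7, 7 to 14 and 14 to 49, against 0.0258%, 0%, 0% and 0% of probe sets, and none in the F test over the 5 times, against 0.0129%. Over 17 arrays it again called 0 members at the 5 times, in the step from day 1 to day 3 and in the F test, against 0.219%, 0%, 0%, 0%, 0%, 0.203% and 0.135% of probe sets. Among the 10 pairs of times, over 19 arrays, the lowest adjusted p of a member was 0.343.

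Members with an unadjusted p under 0.05 were counted beside the same share of all genes. Over 19 arrays they numbered 1 of 62 at day 1 (1.61%, against 1.95% of all genes), 3 at day 3 (4.84%, against 0.886%), 1 at day 7 (1.61%, against 0.710%), 3 at day 14 (4.84%, against 12%, or 1700 of the 14217 genes) and 12 at day 49 (19.4%, against 13.8%). The step from day 1 to day 3 gave 1 (against 2.18%) and the F test 4 (6.45%, against 4.41%). Over 17 arrays the counts were 7 at day 1 (11.3%, against 7.92%), 6 at day 3 (9.68%, against 4.51%), 3 at day 7 (4.84%, against 3.72%), 3 at day 14 (4.84%, against 5.10%) and 11 at day 49 (17.7%, against 9.33%), with 4 in the F test (6.45%, against 7.05%).

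The median of the 62 differences from control was -0.015 at day 1, 0.020 at day 3 and 0.003 at day 7, with 29, 36 and 33 members above 0. At day 14 it was 0.066 over 19 arrays and 0.002 over 17, and at day 49 it was -0.041 and -0.044. Over all 14217 genes the median was 0.006, -0.005 and 0.007 at days 1, 3 and 7, with 7496, 6709 and 7658 above 0. The median of all genes was 0.063 over 19 arrays and 0.007 over 17 at day 14, and -0.028 and 0.001 at day 49. Among the 36 members above the median probe set, the day 49 median over 19 arrays was -0.204. That value includes day49 replicate 2, and the subset was not fitted over the 17 arrays. The other 26 members had a mean signal at or below that of the median probe set, 5.6 log2. Among them are Ntn1, Dcc, Sema3a, Sema3d, Sema4g, Robo1, Efnb3, Epha3, Epha4, Epha5, Epha10 and Unc5cl, which are described below. The 95% interval of a member's difference had a median half-width of 0.335 over 19 arrays, and 41, 45, 46, 37 and 25 of the 62 intervals lay wholly within 0.5 of 0 at days 1, 3, 7, 14 and 49. Over 17 arrays 60 of the 62 intervals lay wholly within 0.5 of 0 at day 1, and 58, 59, 57 and 53 did at days 3, 7, 14 and 49, so the precision at day 49 rests heavily on leaving out the 2 arrays.

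**Figure D2:**
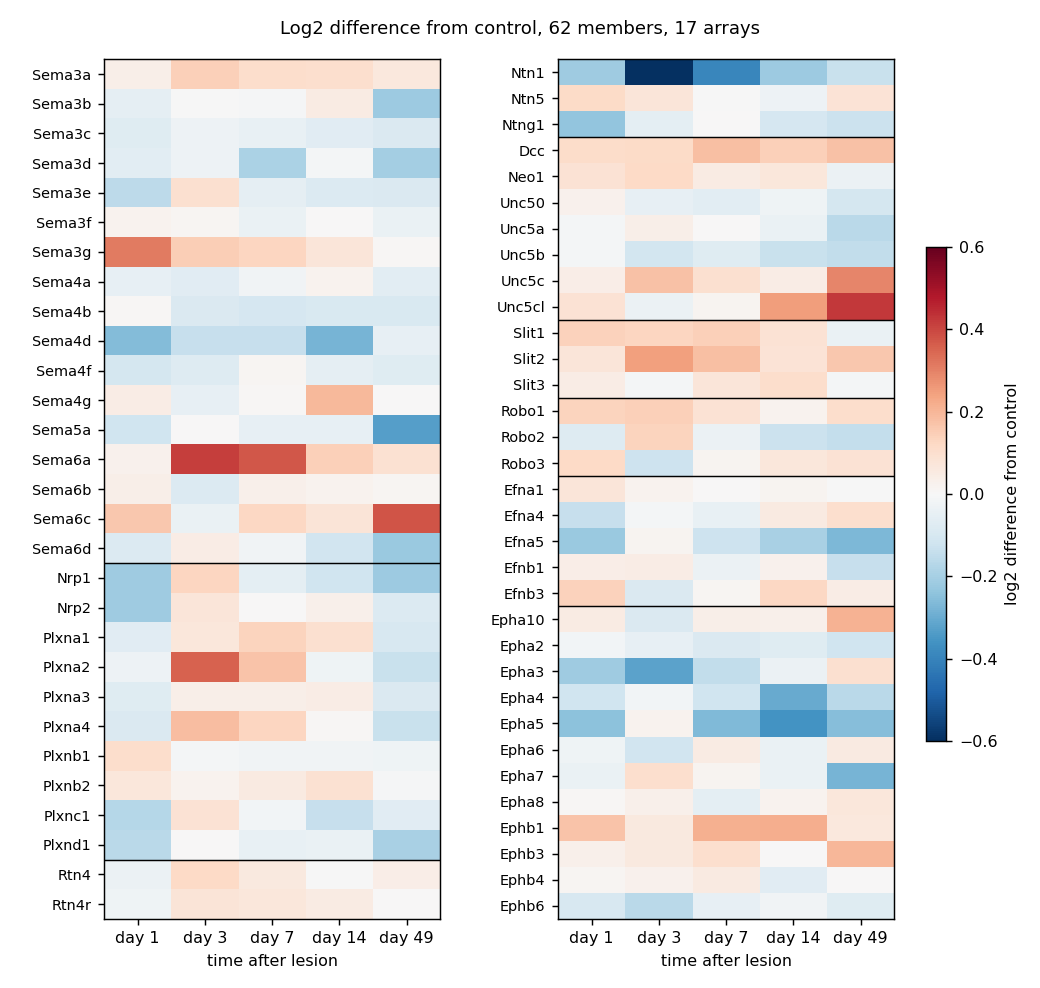
Log2 difference from control of all 62 members over the 17 arrays, by time after the lesion, grouped by family (lines). Colour runs from -0.6 (blue) to 0.6 (red), the limits of the scale; most cells are pale, and the deepest are Ntn1 at day 3 with -0.61, Sema6a at day 3 with 0.42 and Unc5cl at day 49 with 0.42.

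Among the 17 semaphorins, Sema3g had the smallest unadjusted p at day 1 and Sema6a at days 3 and 7, over 19 arrays and each within its own time. Sema3g is a secreted semaphorin made largely by blood vessels. Its control arrays read 9.01, 8.94, 9.00 and 8.83 log2, and its day 1 arrays 9.30, 9.16 and 9.32. Every day 1 array lay above every control array. The difference was 0.31 (SE 0.08), or 1.24-fold, with an unadjusted p of 0.00189 and an adjusted p of 0.986 in limma. Over 17 arrays the adjusted p was 0.14, and with limma's array weights, which give each array its own weight, it was 0.024, the 1 member called at day 1 under those weights (1.61%, against 0.837% of all genes). At days 3 and 7 the means lay 0.15 and 0.13 above control, and over 17 arrays 0.07 and 0.01 at days 14 and 49. A second, dimmer probe set of Sema3g lay 0.07 above control at day 1. The 7 endothelial markers lay above control in 6 of 7 at day 1, with a median of 0.147; their mean per array was 6.85 to 7.02 at day 1 against 6.66 to 6.79 in controls. At days 3 and 7 the endothelial median was -0.062 and -0.011. The 8 astrocyte markers had a mean per array of 6.732 to 6.875 at day 1 against 6.577 to 6.681 in controls. The part of either cell type in the Sema3g difference was not tested.

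Sema6a is a membrane semaphorin that signals through Plxna2 and Plxna4 and has a part in guiding corticospinal axons in development. Its brightest probe set read 6.11, 5.87, 6.08 and 5.84 log2 in controls, 5.97, 5.89 and 6.12 at day 1, 6.41, 6.50 and 6.26 at day 3, and 6.08, 6.34 and 6.61 at day 7. The day 3 arrays all lay above the controls, whereas 1 of the day 7 arrays lay among them. The difference was 0.42 (SE 0.14), or 1.33-fold, at day 3 (unadjusted p 0.00785, adjusted p 1.0) and 0.37 (SE 0.14) at day 7 (0.0155 and 1.0). At day 14 the arrays read 6.28, 5.77 and 5.95, on both sides of the control range, and at day 49 they read 6.06, 5.77 and 6.06.

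Sema6a has 5 probe sets, and they did not move alike. The second brightest was singled out after its values were seen. It read 5.67, 5.52, 5.56 and 5.58 in controls, 5.80, 5.77 and 6.06 at day 1, 6.17, 6.18 and 6.06 at day 3, and 5.87, 6.06 and 6.20 at day 7, so every array of these times lay above every control. At day 14 it read 5.64, 6.53 and 5.54, the middle value from the array that stands apart, and at day 49 5.83, 5.51 and 6.00. Over 17 arrays its differences were 0.29 at day 1, 0.55 at day 3 and 0.46 at day 7, each with SE 0.085, then 0.01 at day 14 and 0.33 at day 49 (95% interval 0.13 to 0.54). In limma the day 3 difference had an adjusted p of 0.132, and the F test had 0.0445, against 0.724 over 19 arrays. That call was lost in 14 of 17 fits that left out a further array, where the adjusted p ran from 0.0253 to 0.148; it was kept without day1 replicate 3, day7 replicate 1 or day49 replicate 1. Those fits that left out an array of day 14 or day 49 held only 1 array at that time. The fourth probe set by brightness lay 0.24 above control at day 3, and the third and the fifth lay at 0.05 and -0.05.

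**Figure D3:**
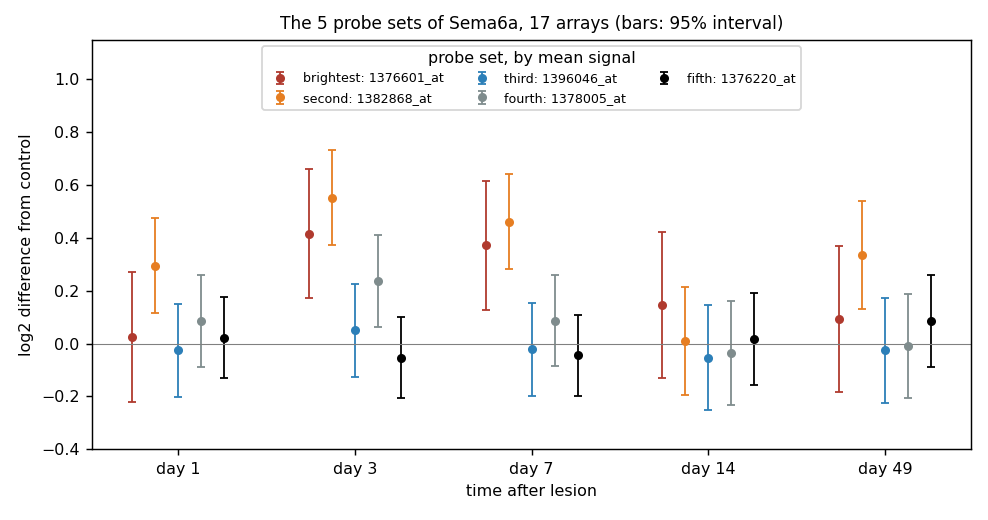
Log2 difference from control of the 5 probe sets of Sema6a over 17 arrays, by time; bars are 95% intervals. At day 3, 3 probe sets lie above 0 with 0.42, 0.55 and 0.24, and the other 2 lie at -0.05 and 0.05.

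Sema3a, the secreted repellent that collapses many growth cones, lay between 0.04 and 0.14 above control at days 1 to 7. It read 4.14, 4.13, 3.95 and 4.11 in controls and 4.11, 4.43 and 4.13 at day 3, groups that overlap. Its day 49 arrays read 4.22, 5.15 and 4.07, and the difference of 0.40 over 19 arrays was 0.06 over 17. Sema3d, also secreted, lay 0.19 below control at day 7 (3.75, 3.92 and 3.74 against 3.82 to 4.15), and Sema4g lay 0.20 above it at day 14 over 17 arrays (5.20 and 5.26 against 4.76 to 5.18). The unadjusted p was 0.0964 for Sema3d over 19 arrays and 0.112 for Sema4g over 17.

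The late differences of Sema6c and Sema6d, membrane semaphorins of the Sema6a class, had opposite signs. Sema6c read 6.66, 6.75, 6.55 and 6.52 in controls and 6.69, 7.35 and 7.30 at day 49. The first of those lay among the controls and the others above them. The difference was 0.49 (SE 0.13, unadjusted p 0.00204, adjusted p 0.306), and 0.38 over 17 arrays; its other probe sets lay at 0.12 and 0.14 over 19 arrays and at -0.01 and 0.08 over 17. Sema6d read 8.97, 8.76, 9.06 and 8.82 in controls and 8.92, 7.93 and 8.43 at day 49. Its difference of -0.47 (unadjusted p 0.00891, adjusted p 0.306) was -0.22 over 17 arrays (0.0733 and 0.469), without the array that stands apart.

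The 10 plexins and neuropilins, the receptors of the semaphorins, lay mostly on 1 side of control at days 1, 3 and 49. At day 1, 2 of 10 lay above control, with a median of -0.079; at day 3, 9 of 10 did, with a median of 0.070; at day 7, 5 of 10. At day 49 over 17 arrays 0 of 10 did, with a median of -0.092. The early shifts lay within the spread of the controls. The mean deviation of the 10 genes was 0.06, -0.07, 0.17 and -0.16 on the 4 control arrays, -0.03, -0.14 and -0.08 at day 1, and 0.07, 0.09 and 0.12 at day 3, so both times fall inside the control range. At day 49 it was -0.01, -0.41 and -0.20, of which the array that stands apart and 1 other lay below every control.

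**Figure D4:**
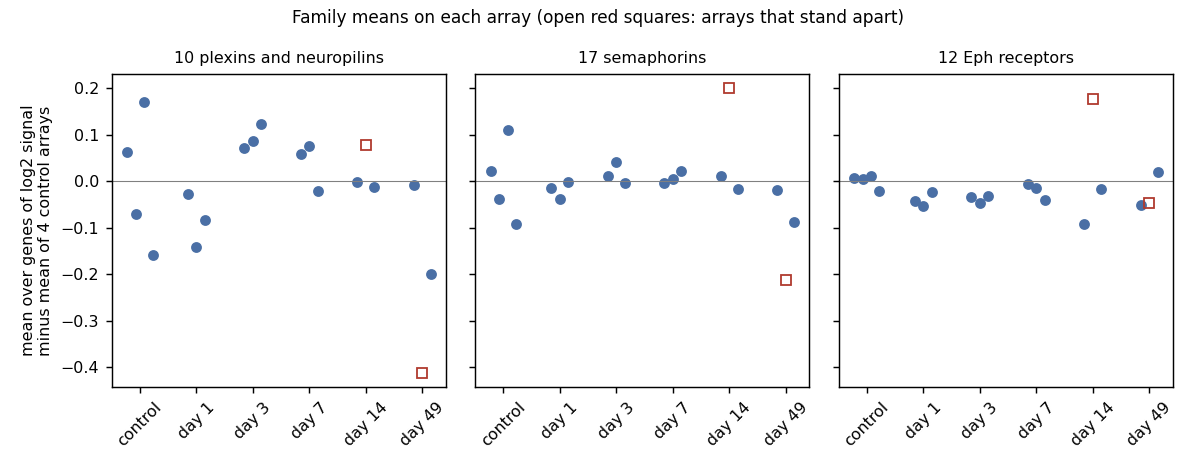
Mean log2 deviation from control over the genes of 3 families on each array; open red squares are the 2 arrays that stand apart. The plexins and neuropilins run from -0.16 to 0.17 among the controls, a range that covers every array of days 1, 3 and 7.

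Nrp1, the receptor subunit that binds Sema3a, had the smallest p of any member in the step from day 1 to day 3 over 17 arrays. It read 7.50, 7.30, 7.53 and 7.40 in controls, 7.41, 6.99 and 7.26 at day 1 and 7.58, 7.46 and 7.64 at day 3. The day 1 arrays reached below the controls and the day 3 arrays lay above all those of day 1. Over 17 arrays the day 3 minus day 1 difference was 0.34 (SE 0.09, unadjusted p 0.00193, adjusted p 0.224). Its day 49 arrays read 7.26, 5.79 and 7.17, all under the controls, a difference of -0.69 over 19 arrays and -0.22 over 17 (unadjusted p 0.0426, adjusted p 0.395). The second Nrp1 probe set lay 0.28 above control at day 3, and at day 49 it lay 0.35 below control over 19 arrays and 0.18 below it over 17.

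The step from day 1 to day 3 ran the same way in some other members. Of the 62 members, 37 lay higher at day 3 than at day 1 and 25 lay lower. The median difference was 0.028, against -0.01 over all genes. Over 17 arrays 11 of 62 members had an unadjusted p under 0.05 (17.7%, against 8.81% of all genes), 10 of them higher at day 3 than at day 1: Efna5, Nrp1, Nrp2, Plxna2, Plxna4, Plxnc1, Plxnd1, Rtn4, Sema3e and Sema6a. Sema3g was lower. These names were taken from the results. The second probe sets of Efna5 and Nrp2 went the other way. They lay 0.11 and 0.08 above control at day 1, and 0.05 and 0.06 above it at day 3. The second probe sets of Nrp1, Plxna4, Plxnc1 and Rtn4 were higher at day 3 than at day 1. Plxna4, a receptor for Sema6a and partner of Nrp1, read 6.54, 6.44, 6.80 and 6.27 in controls, 6.54, 6.30 and 6.43 at day 1, and 6.69, 6.81 and 6.59 at day 3. Plxna2 read 7.20, 7.18, 7.67 and 6.95 in controls, 7.30, 7.19 and 7.18 at day 1, and 7.67, 7.58 and 7.56 at day 3. In both genes the day 3 arrays lay above those of day 1, while the controls ranged across both groups. The 6 layer V markers had a mean of 8.41 to 8.45 on the day 1 arrays and 8.47 to 8.58 on the day 3 arrays; the part of cell makeup in this step was not tested.

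Of the netrins, Ntn1 had the largest early difference of any member. Its spread within groups was also the largest of any member over 17 arrays, with a residual SD of 0.307. Its mean signal of 5.06 log2 lay below that of the median probe set, 5.6. Ntn1 is a secreted cue that attracts axons through Dcc. It read 5.52, 5.53, 4.90 and 5.24 in controls, 5.04, 4.85 and 5.36 at day 1, 4.58, 4.63 and 4.86 at day 3, and 4.78, 4.69 and 5.24 at day 7. All day 3 arrays lay below the controls, the highest of them by little. The difference at day 3 was -0.61 (SE 0.20), or 0.657-fold, with an unadjusted p of 0.00937 and an adjusted p of 1.0, and at day 7 it was -0.39 (unadjusted p 0.0749). Its other probe sets, both dimmer, lay at -0.01 and 0.04 at day 3. Ntng1, a membrane-bound netrin relative, lay 0.24 below control at day 1 (7.76, 7.66 and 7.93 against 7.84 to 8.20; unadjusted p 0.0965).

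The 7 genes grouped as netrin receptors, Unc50 and Unc5cl included, differed from control by -0.11 to 0.17 at day 3. Dcc, the attractive receptor, read 4.32, 4.26, 4.24 and 4.10 in controls and 4.34, 4.50 and 4.19 at day 3, a difference of 0.11 with overlapping groups. Its day 49 arrays read 4.46, 5.08 and 4.35, above all controls, with a difference of 0.40 over 19 arrays and 0.18 over 17 (unadjusted p 0.0173 and 0.0951). Neo1, a Dcc relative that also binds RGM proteins, lay 0.12 above control at day 3 and 0.42 below it at day 49; without the array that stands apart, where it read 4.62, the latter was -0.03. Unc5cl read 4.46, 4.38, 4.05 and 4.18 in controls and 4.29, 4.71 and 5.10 at day 49. The day 49 arrays overlapped the controls and spread over a wider range than they did; the difference was 0.43 (SE 0.15, unadjusted p 0.0102, adjusted p 0.306).

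**Figure D5:**
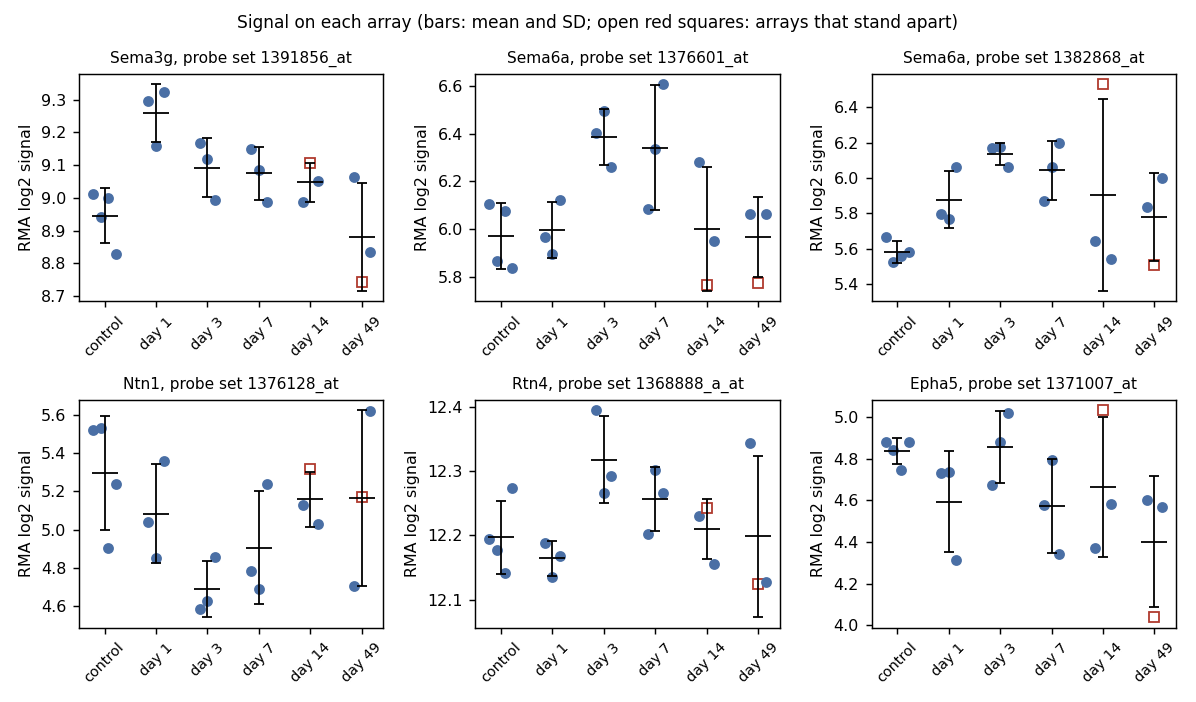
RMA log2 signal on each array for Sema3g, Sema6a (the brightest and the second probe set), Ntn1, Rtn4 and Epha5; bars are the mean and SD, and open red squares are the arrays that stand apart. Sema3g is highest at day 1, where it reads 9.16 to 9.32, and Ntn1 is lowest at day 3, where it reads 4.58 to 4.86.

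Slit2, a secreted repellent of the Robo receptors, lay above control at day 3. It read 6.82, 6.76, 6.96 and 6.60 in controls and 7.04, 7.08 and 6.96 at day 3, the lowest of the latter just at the top of the controls. The difference was 0.25 (SE 0.17, unadjusted p 0.175; 0.0167 over 17 arrays, adjusted p 0.999). Its other probe sets lay below 0 at that time. At day 14 it read 6.78, 7.76 and 6.94, and the difference of 0.38 over 19 arrays was 0.08 over 17. Robo1, the receptor of Slit2 that carries this repulsion, read 4.86, 4.84, 4.73 and 4.68 in controls and 4.79, 5.06 and 4.91 at day 3, a difference of 0.14 with overlapping groups. At day 49 it lay 0.26 above control over 19 arrays and 0.10 over 17.

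Ephrins and Eph receptors, which signal where cells touch, numbered 5 and 12. Epha3 read 4.36, 4.39, 4.11 and 4.12 in controls and 3.87, 3.80 and 4.11 at day 3, a difference of -0.32 (SE 0.14, unadjusted p 0.0369, adjusted p 1.0), with the highest day 3 array next to the lowest control. Epha5, a receptor for A-type ephrins, read 4.88, 4.84, 4.75 and 4.88 in controls, 4.73, 4.74 and 4.31 at day 1, 4.68, 4.88 and 5.02 at day 3, and 4.58, 4.80 and 4.34 at day 7. It was under the control range on all day 1 arrays and back within or above it on most of day 3. Over 17 arrays its differences were -0.24, 0.02, -0.27, -0.36 and -0.26 at days 1, 3, 7, 14 and 49, with unadjusted p-values of 0.0525, 0.866, 0.0373, 0.0154 and 0.072 and no adjusted p under 0.467.

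Efna5, an A-type ephrin, also lay below control at days 1 and 49. It read 8.22, 8.16, 8.40 and 8.18 in controls, 8.20, 7.96 and 7.89 at day 1, 8.28, 8.28 and 8.21 at day 3, and 8.20, 7.73 and 7.74 at day 49. The day 3 arrays lay within the controls, and most of those of days 1 and 49 lay below them. The difference was -0.22 at day 1 and -0.35 at day 49 (unadjusted p 0.156 and 0.0326), and its second probe set lay 0.11 above control at day 1. Efna1 lay 0.57 below control at day 14 over 19 arrays and 0.02 above it over 17, since day14 replicate 2 read 6.12 and its other arrays 7.88 and 7.93, beside 7.81 to 7.97 in controls.

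Ephb1, a receptor for B-type ephrins, was the 1 Eph receptor above control at both day 7 and day 14 by unadjusted p over 17 arrays. It read 6.56, 6.43, 6.69 and 6.49 in controls, 6.80, 6.80 and 6.67 at day 7 and 6.77, 7.26 and 6.75 at day 14. The day 14 arrays lay above all controls. Over 17 arrays its differences were 0.21 and 0.22 (SE 0.09 and 0.10), with unadjusted p-values of 0.0256 and 0.042 and adjusted p-values of 0.986 and 0.874. Epha4, the corticospinal receptor of the midline ephrin Efnb3, read 4.74, 4.58, 4.83 and 5.08 in controls, a spread that covers its arrays of days 3 and 7. Efnb3 lay 0.14 above control at day 1 and 0.05 above it at day 49 over 17 arrays. Epha10, a receptor thought to lack kinase activity, read 4.87 ± 0.11 (SD, n = 4) in controls and 5.07 ± 0.08 (SD, n = 3) at day 49, a difference of 0.20 (unadjusted p 0.0156, adjusted p 0.306).

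The Nogo pair differed from control by at most 0.12 in either direction at any time. Rtn4 read 12.19, 12.18, 12.14 and 12.27 in controls and 12.39, 12.27 and 12.29 at day 3, of which 1 lay among the controls. The difference was 0.12 (SE 0.07), or 1.09-fold, with an unadjusted p of 0.0938 and a 95% interval of -0.02 to 0.27. Rtn4r, the Nogo receptor, read 6.05, 6.23, 6.07 and 5.97 in controls and 6.16, 6.12 and 6.20 at day 3, a difference of 0.08 (95% interval -0.11 to 0.27). The second Rtn4 probe set departed from the first on single arrays, where it read 5.05 on day14 replicate 2 and 9.44 on control replicate 3, against 10.7 to 11.8 on the others.

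In a few members the arrays of a time did not overlap the controls, over 19 arrays. At day 1, 2 members lay above all controls (Sema3g and Sema6c; 4.56% of all genes did) and 3 below (Epha5, Nrp2 and Sema3e; 3.02%). At day 3, 3 lay above (Ephb3, Slit2 and Sema6a; 2.49%) and 2 below (Epha3 and Ntn1; 3.49%). At day 7, 1 lay above (Ephb3; 2.94%) and 2 below (Efna5 and Sema4b; 3.05%). At day 14, 3 lay above (Ephb1, Unc5cl and Sema4g; 5.63%) and 0 below (2.07%). At day 49, 1 lay above (Dcc; 4.14%) and 4 below (Epha5, Epha7, Nrp1 and Plxnd1; 4.46%). Of the 62 members, 27 had more than 1 probe set, and of their 44 further probe sets 24, 26, 23, 17 and 18 had the sign of the brightest at days 1, 3, 7, 14 and 49.

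At day 49 the number of calls hung on how single arrays were counted. With array weights 13 members were called at day 49 (21.0%, against 18.3% of all genes), 7 from day 14 to day 49 (11.3%, against 7.96%) and 17 in the F test (27.4%, against 18.8%). The 3 day 49 arrays had weights of 0.385, 0.067 and 3.70, so that replicate 3 carried most of the day 49 mean. Leaving out day49 replicate 1 gave 5 calls (8.06%, against 7.42%), among them Sema6c, Sema6d and Unc5cl, and kept the array that stands apart as 1 of 2. Over 17 arrays, leaving out day49 replicate 1 as well called Unc5cl in the F test, where 0.364% of probe sets were called, against 0.135% with that array.

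The surrounding pathway gave no call either. Of 71 listed co-receptors, further ligands and intracellular effectors, 67 were measured. Of these, 0 passed the threshold in either direction at any of the 5 times, over 19 or 17 arrays. The same tests called 0.0354% of all probe sets at day 1 over 19 arrays and 0.219% over 17, and 0% at the later times. The medians of the 67 genes over 19 arrays were -0.012, 0.009, 0.027, 0.013 and -0.053 at days 1, 3, 7, 14 and 49. Over 17 arrays they were -0.027 at day 14 and -0.013 at day 49. Flrt3, a membrane protein that binds Unc5 receptors, lay 0.33 above control at day 1 and 0.35 at day 7 (unadjusted p 0.0173 and 0.013 over 17 arrays). Wnt5a, a repellent ligand for corticospinal axons, lay 0.16 below it at day 3 (0.00467, adjusted p 0.937), and Rhoa, a GTPase on which many repellent signals converge, 0.47 below it at day 49 (0.00321, adjusted p 0.226). These were named after their values were seen. Over 17 arrays 3, 6, 3, 3 and 6 of the 67 had an unadjusted p under 0.05 at days 1, 3, 7, 14 and 49. The shares of all genes were 7.92%, 4.51%, 3.72%, 5.10% and 9.33%. At day 49 the 67 differences ran from -0.78 (Adam10) to 0.23 (Gsk3b) over 17 arrays.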

How the data were processed

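The values are log2 signals deposited by the authors, made with RMA per the submitters' processing notes, which name no version. Each array took 6 ug of total RNA, per the labels. Of 31099 probe sets, 57 array controls were left out. Symbols are those of the array's annotation, brought up to date with RefSeq (GRCr8) by gene ID for 20758 probe sets and by accession for 2; 66 were kept; 20826 had 1 symbol, 436 several and 9780 none.

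Group means were fitted with limma 3.58.1 in R 4.3.3 over all arrays (two-sided, eBayes defaults), and the test was tested on simulated data. The members and lists were chosen with earlier results of these data known. Named were the 5 members of smallest p at each time, the 6 of the F test and 13 textbook genes, 26 in all; Plxna2, members listed beside counts, and pathway genes were chosen after seeing values. Alternatives were no 2 outlying arrays, median centring, a repeated quantile normalization, a filter on dim probe sets (below the median), array weights, robust eBayes with a trend, tests on 1 probe set per gene, a replicate block, oligodendrocyte and beta-actin covariates, 2-group fits, and each replicate left out.

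Groups share replicate numbers in the labels. Deviations of like-numbered arrays of control and day 1 correlated by 0.166, 0.117 and 0.269, all over 0.1, which the rule used treats as possible pairing. These correlations are low and do not show that the arrays were paired. Over all pairs of groups, like-numbered arrays correlated by -0.322 to 0.453. The values given come from the fit without a block, and the blocked counts stand in the closing section. In no other comparison were all 3 over 0.1. Scan dates were not used here. The number of arrays limits the precision. Plots used matplotlib 3.10.9 in Python 3.11.15.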

Additional observations from a re-analysis of the deposited data

How the results depend on the processing

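Most values of the named members kept their direction and side of the threshold. Under alternatives other than leaving out 1 replicate, 392 did, 9 passed the threshold and 3 turned sign. Several of these alternatives could not turn a sign, among them robust eBayes, the filter, 2-group fits and tests on 1 probe set per gene. Leaving out the 2 arrays that stand apart could not change the differences at days 1, 3 and 7, only their SEs and p-values. Over all 62 members, leaving them out turned the sign in 28 at day 14 and 12 at day 49. With limma's array weights the called members numbered 1 at day 1, 13 at day 49, 7 from day 14 to day 49 and 17 in the F test, against 0. Leaving out each replicate gave 0 to 5 calls at day 49, 5 without day49 replicate 1, and 0 to 0 elsewhere. With the replicate number as a block the count was 0 in every comparison, so the block changed no call. The day 49 median was -0.204 with the filter at the median probe set (36 members), against -0.041. The filtered value includes day49 replicate 2, and the filter was not fitted over the 17 arrays. Efna1 at day 14 was -0.57 over all arrays, 0.018 without the 2 arrays that stand apart, 0.017 with array weights, and -0.884 to 0.018 when each replicate was left out. Sema3a at day 49 was -0.007 with array weights. The causes were not tested.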
